A study of Oryza sativa with 8 samples.

Results

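The genes described here are the rice genes of the cell division cycle and of DNA replication: cyclins of types A, B and D, cyclin-dependent kinases (CDKs), the CDK inhibitors called KRPs, the origin recognition complex (ORC), the MCM helicase, the sliding clamp PCNA and the single-strand binding protein RPA. Members were taken by name, as every gene whose symbol or synonym begins with CYCA, CYCB, CYCD, CDK, KRP, MCM, PCNA or E2F, or with ORC or RPA and a digit. In the annotation 61 genes matched, and 52 of them had a probe set of their own, out of 17905 genes measured that way. The 52 were 9 D-type, 3 A-type and 4 B-type cyclins, 11 CDKs, 4 KRPs, 5 ORC subunits, 8 MCM genes and 8 genes for PCNA and RPA. No probe set paired with a single gene was found for CDKB1-1, CDKC-2, CDKF-2, CYCA3-1, CYCB1-5, CYCD2-1, KRP2, KRP3 and ORC6, and no E2F gene matched by name.

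The groups were developing panicles of 0.1 cm from OX-Ghd7HJ19 plants, the same stage from wild-type Hejiang19, young leaves of 35-day-old OX-Ghd7HJ19 plants, and young leaves of Hejiang19 of that age. OX-Ghd7HJ19 is a transgenic line in the Hejiang19 background that overexpresses Ghd7, a CCT-domain gene that delays flowering in long days and enlarges the panicle. All plants grew in the field and all tissue was taken 3 hours after dawn, so each gene was seen at a single time of day. Every group had 2 Affymetrix arrays labelled as biological replicates, 8 in all. The labels name neither the promoter of the transgene nor how many lines or plants a replicate holds, so the p-values measure the spread between these samples.

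In plants, D-type cyclins bind CDKA and start the cell cycle by phosphorylating the retinoblastoma-related protein, A-type cyclins act around S phase, and B-type cyclins together with CDKB kinases drive mitosis, while KRPs bind and restrain cyclin-CDK complexes. DNA replication starts where ORC sits on the chromosome and loads the MCM2 to MCM7 ring, the replicative helicase, after which PCNA holds the polymerase on its template and RPA coats the exposed single strands. A young panicle is made largely of dividing meristem tissue, whereas most cells of an expanded leaf have left the cycle.

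Values are the deposited log2 expression values. The median of an array was 6.13 to 6.15 for panicles and 4.49 to 4.53 for leaves, so the tissues do not share one scale, and genotypes were compared within a tissue. A group mean below the median of its own arrays may be background. In wild-type panicles 2 members (KRP1 and MCM8) lay below that median, and in wild-type leaves 24 did. Between replicate arrays r was 0.991 to 0.998 over probe sets, which are not independent replicates. The median SD between replicates over the 52 members was 0.080 in overexpressor panicles, 0.032 in wild-type panicles, 0.094 in overexpressor leaves and 0.13 in wild-type leaves. No probe set carried the name Ghd7, so the transgene could not be used to check the genotype labels and is not analysed here.

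The first comparison asked whether the genotypes differed in young panicles. In panicles 0 of the 52 members passed the test (limma, Benjamini-Hochberg adjusted p under 0.05), where 2.89% of all tested probe sets passed, 1.05% as higher and 1.84% as lower, or 1.65% and 2.04% of genes. The smallest adjusted p of a member in limma was 0.12, for CYCB2-1, and 7 members had an unadjusted p under 0.05. The differences between overexpressor and wild type had a median of -0.12 over the members and ran from -0.45 to 0.36 on the log2 scale, against a median of 0.016 over all tested probe sets and -0.0018 over genes. Every member's 95% interval, not adjusted for the number of genes, lay inside -1 to 1, which is a 2-fold difference either way. The difference was below 0 for 40 members (76.9%) and above 0 for 12, where 46.4% of all probe sets and 50.5% of genes were below 0. Under the other scalings tried 38 to 41 of the 52 were below 0. In 32 members, or 61.5%, both overexpressor panicles lay below both wild-type panicles, where 24% of all probe sets and 31.3% of genes did. In 9 members, or 17.3%, both lay above, where 27.3% of all probe sets and 30.1% of genes did. These members were read from the same 4 arrays and are not independent of each other, so the counts describe these libraries.

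**Figure D1:**
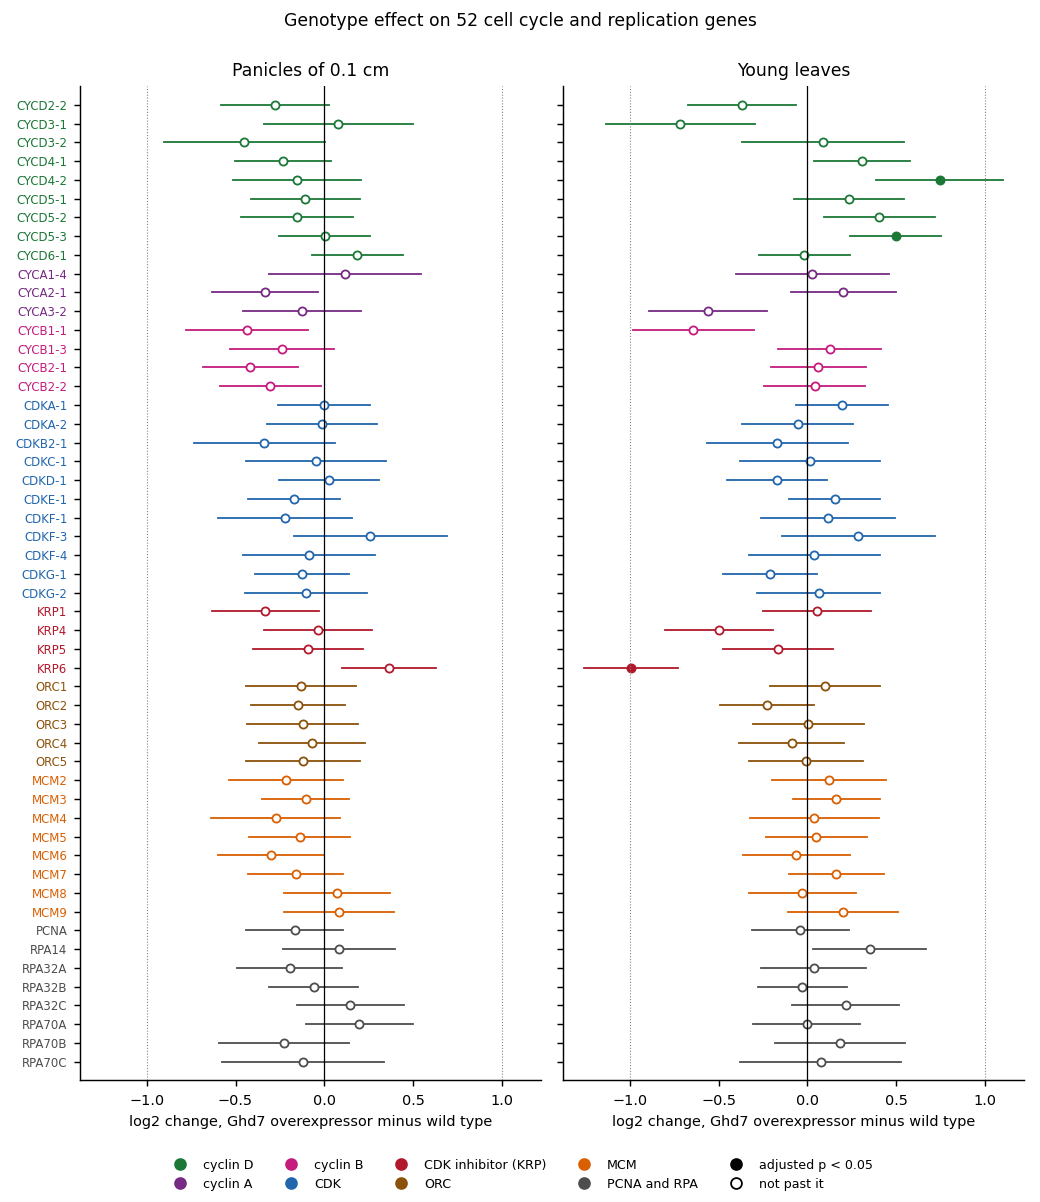
Difference on the log2 scale between overexpressor and wild type for each of the 52 genes, in panicles (left) and young leaves (right), with 2 arrays per group. Circles are limma estimates, bars their 95% intervals, colours the gene classes, filled circles an adjusted p under 0.05, and dotted lines a 2-fold difference. All 52 panicle intervals lie inside the dotted lines, and only KRP6, CYCD4-2 and CYCD5-3 are filled, all in leaves.

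The B-type cyclins, which activate the mitotic kinase, were the class with the lowest panicle median, at -0.36 over 4 genes. CYCB2-1 had 11.46 and 11.55 in overexpressor panicles, against 11.93 and 11.91 in wild-type panicles. CYCB1-1 had 12.11 and 12.25 in overexpressor panicles, against 12.63 and 12.60 in wild-type panicles. In both genes the genotypes did not overlap and the wild-type arrays lay closer together than the overexpressor arrays. The difference was -0.42 ± 0.12 (log2 ± SE) for CYCB2-1 (limma, adjusted p = 0.12) and -0.43 ± 0.15 for CYCB1-1 (limma, adjusted p = 0.205). CYCB2-2 had 12.29 and 12.38 in overexpressor panicles, against 12.69 and 12.59 in wild-type panicles. CYCB1-3 averaged 8.86 ± 0.081 in overexpressor panicles and 9.10 ± 0.14 in wild-type panicles (SD, n = 2 each). All 4 B-type cyclins were therefore lower on both overexpressor arrays than on either wild-type array, and none passed the test. The same held for 24% of all probe sets and 31.3% of genes, and these 4 were read from the same arrays.

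CDKB2-1, the plant-specific kinase that pairs with mitotic cyclins, had 12.58 and 12.51 in overexpressor panicles, against 12.87 and 12.90 in wild-type panicles. Its difference of -0.34 ± 0.18 did not pass (limma, adjusted p = 0.416). The other 10 CDKs had differences between -0.22 and 0.26. Among them CDKA-1 and CDKA-2, the kinases that partner D-type and A-type cyclins, had -0.0019 and -0.012. CDKD-1, a CDK-activating kinase, had 0.026, and CDKC-1 and CDKE-1, of types known for acting on the transcription machinery, had -0.048 and -0.17.

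Among D-type cyclins, which respond to growth signals at the start of the cycle, 6 of 9 panicle differences were below 0. CYCD3-2 had the largest of all members, with 12.43 and 11.93 in overexpressor panicles, against 12.61 and 12.64 in wild-type panicles. That is a difference of -0.45 ± 0.20 (limma, adjusted p = 0.333). The overexpressor arrays of CYCD3-2 stood apart from each other, with an SD of 0.35 that was the highest of any member in that group, and its difference was -0.70 to -0.20 when each array was left out. CYCD2-2 and CYCD4-1 had differences of -0.28 and -0.23, and CYCD4-2 and CYCD5-2 of -0.15 each. CYCD5-3 had 10.33 and 10.34 in overexpressor panicles, against 10.37 and 10.30 in wild-type panicles, so the genotypes overlapped. CYCD6-1 at 0.19 and CYCD3-1 at 0.078 were above 0. Of the A-type cyclins CYCA2-1 had 11.94 and 12.13 in overexpressor panicles, against 12.39 and 12.36 in wild-type panicles, a gap of -0.33 ± 0.13 that did not pass (limma, adjusted p = 0.267).

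Genes of replication licensing showed small differences of one sign. MCM2 to MCM7, the 6 subunits of the helicase ring, were each lower on both overexpressor panicle arrays than on either wild-type array. Of all probe sets 24% lay below in this way, and 31.3% of genes. The differences of the 6 ran from -0.30 to -0.11 with a median of -0.19, and none passed the test. MCM6 had 11.92 and 11.66 in overexpressor panicles, against 12.06 and 12.12 in wild-type panicles (limma, adjusted p = 0.327). MCM4 had 12.44 and 12.13 in overexpressor panicles, against 12.57 and 12.55 in wild-type panicles (limma, adjusted p = 0.489). In both genes the 2 overexpressor arrays were further from each other than the wild-type arrays were. MCM8 and MCM9, known in animals for roles in recombination repair, had 0.072 and 0.080. The 5 ORC subunits had differences from -0.15 to -0.071, with ORC1 and ORC2 not overlapping and ORC3, ORC4 and ORC5 overlapping between genotypes.

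For PCNA the panicle values were 13.54 and 13.38 in overexpressors and 13.64 and 13.61 in wild type, a difference of -0.17 ± 0.12 (limma, adjusted p = 0.595). RPA consists of a large, a middle and a small subunit, which rice encodes in several copies. The differences were 0.20, -0.23 and -0.12 for the large subunit genes RPA70A, RPA70B and RPA70C, -0.19, -0.060 and 0.15 for RPA32A, RPA32B and RPA32C, and 0.083 for RPA14. In all 8 genes of PCNA and RPA the genotypes did not overlap, 5 with the overexpressor below and 3 with it above. Over all genes, 31.3% lay below and 30.1% above in this way. Copies of one subunit had differences of opposite sign, but none of the 8 genes passed the test.

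**Figure D2:**
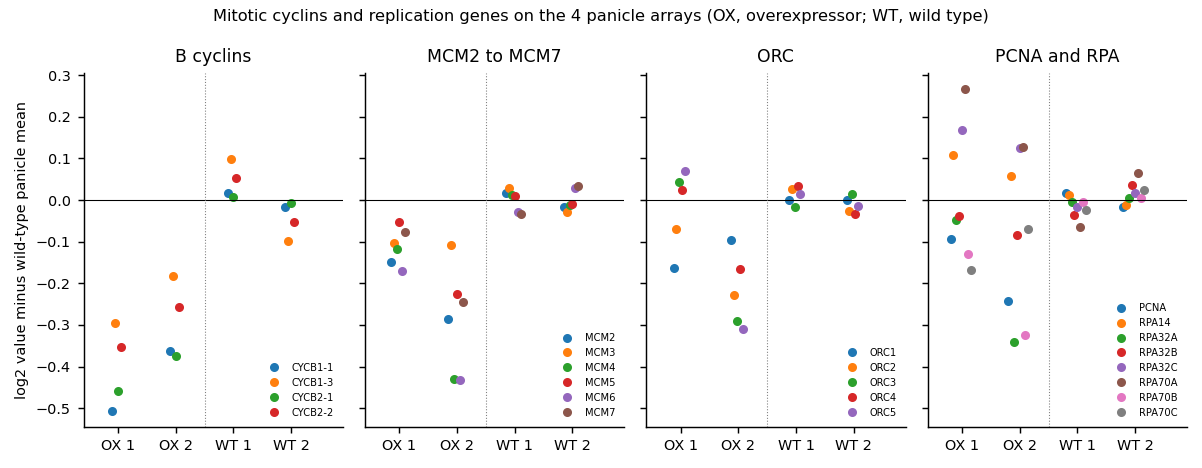
Log2 value on each of the 4 panicle arrays minus the mean of the 2 wild-type panicle arrays, for B-type cyclins, MCM2 to MCM7, ORC subunits and PCNA with RPA. Overexpressor arrays (OX) stand left of wild-type arrays (WT), and each colour is 1 gene. B-type cyclins and MCM2 to MCM7 are below 0 on both overexpressor arrays, while ORC and RPA genes are mixed, and no gene passed the test.

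The KRP inhibitors, which hold CDKs inactive, had 1 member above 0 and 3 below in panicles. KRP6 had 7.98 and 8.01 in overexpressor panicles, against 7.69 and 7.58 in wild-type panicles. Its difference of 0.36 ± 0.12 did not pass (limma, adjusted p = 0.167), although the groups did not overlap. KRP1 had 4.84 and 4.81 in overexpressor panicles, against 5.14 and 5.18 in wild-type panicles, a difference of -0.33 ± 0.13 at levels that may be background (limma, adjusted p = 0.276). KRP4 and KRP5 had -0.036 and -0.093.

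The second comparison asked the same of young leaves. In leaves 3 of the 52 members passed the limma test: the D-type cyclins CYCD4-2 and CYCD5-3 rose and the inhibitor KRP6 fell. That is 3.85% of members higher and 1.92% lower, where 1.37% and 3.05% of all tested probe sets passed as higher and lower, or 2.41% and 6.34% of genes, and 4.42% of probe sets in either direction. Another 49 members did not pass, and 11 had an unadjusted p under 0.05. The median difference of the members was 0.040 and the range -0.99 to 0.74, against medians of 0.031 over all tested probe sets and -0.019 over genes. The leaf difference was above 0 for 32 members (61.5%) and below 0 for 20, where 56.6% of all probe sets and 46.6% of genes were above 0. In 11 members (21.2%) both overexpressor leaves lay above both wild-type leaves and in 8 (15.4%) below. Of all probe sets 25.2% lay above and 18.3% below, and of genes 20.7% and 27.5%. The wild-type leaf arrays differed from each other, with the second above the first in 34 of the 52 members, and the medians over the members were 4.81 and 4.84 on the overexpressor leaf arrays, against 4.60 and 5.08 on the wild-type leaf arrays.

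KRP6 (gene LOC4347280) had 3.23 and 3.11 in overexpressor leaves, against 4.23 and 4.09 in wild-type leaves. It fell by 0.99 ± 0.12 on the log2 scale, or 1.99-fold (limma, adjusted p = 0.00203). The leaf groups did not overlap, but both means were below the median of their arrays, at percentile 23.6 in overexpressors and 44.1 in wild type, so the size of the fall is uncertain. A second KRP6 probe set had 3.39 and 3.51 in overexpressor leaves, against 3.54 and 3.47 in wild-type leaves, and did not show the difference. When both probe sets were averaged the fall was 0.52 and passed, and when the fit held the 4 leaf arrays alone it did not pass (limma, adjusted p = 0.0539).

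CYCD4-2 (LOC4345844) had 5.58 and 6.03 in overexpressor leaves, against 5.16 and 4.96 in wild-type leaves. It rose by 0.74 ± 0.16, or 1.68-fold (limma, adjusted p = 0.0332). CYCD5-3 (LOC4331985) had 7.82 and 7.97 in overexpressor leaves, against 7.38 and 7.43 in wild-type leaves. It rose by 0.50 ± 0.11, or 1.41-fold (limma, adjusted p = 0.0428). Both groups were separated in each gene, and all 4 group means were above the median of their arrays. Both calls were close to the threshold: CYCD4-2 passed in 6 of 16 alternatives (limma, adjusted p = 0.0193 to 0.199), and CYCD5-3 in 4 of 16 (0.0163 to 0.216), with CYCD5-3 lost when any 1 of the 8 arrays was left out (0.0667 to 0.216) and CYCD4-2 lost without any array except overexpressor leaf replicate 1.

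Other D-type cyclins did not pass in leaves. CYCD5-2 had 6.66 and 6.34 in overexpressor leaves, against 6.18 and 6.01 in wild-type leaves, a difference of 0.41 ± 0.14 (limma, adjusted p = 0.17). CYCD4-1 and CYCD5-1 had differences of 0.31 and 0.23, from levels in wild-type leaves below the array median. In these 3 genes, as in CYCD4-2 and CYCD5-3, both overexpressor leaf arrays lay above both wild-type arrays, which makes 5 of the 9 D-type cyclins, where 25.2% of all probe sets and 20.7% of genes did so. CYCD3-1 went the other way, with 5.38 and 4.86 in overexpressor leaves, against 5.65 and 6.01 in wild-type leaves. Its difference of -0.71 ± 0.18 did not pass (limma, adjusted p = 0.0708) and changed to -0.45 without overexpressor leaf replicate 2, while without overexpressor leaf replicate 1 it was -0.97 and passed (adjusted p = 0.0399). CYCD2-2 had -0.37, CYCD3-2 0.088 and CYCD6-1 -0.017.

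Of the other cyclins, CYCB1-1 had 3.39 and 2.99 in overexpressor leaves, against 3.75 and 3.92 in wild-type leaves. The difference of -0.64 ± 0.15 lay on the threshold (limma, adjusted p = 0.0501), with both groups below the array median. CYCA3-2 averaged 4.23 ± 0.036 in overexpressor leaves and 4.79 ± 0.29 in wild-type leaves (SD, n = 2 each), a difference of -0.56 ± 0.15 (limma, adjusted p = 0.0741). These differences crossed the threshold under some alternatives, CYCB1-1 in 6 of 16 and CYCA3-2 in 4 of 16, and not under the others. The other 3 B-type cyclins had 0.041 to 0.12 and sat between percentiles 3.46 and 34.5 in wild-type leaves, where a fall could have gone unseen.

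**Figure D3:**
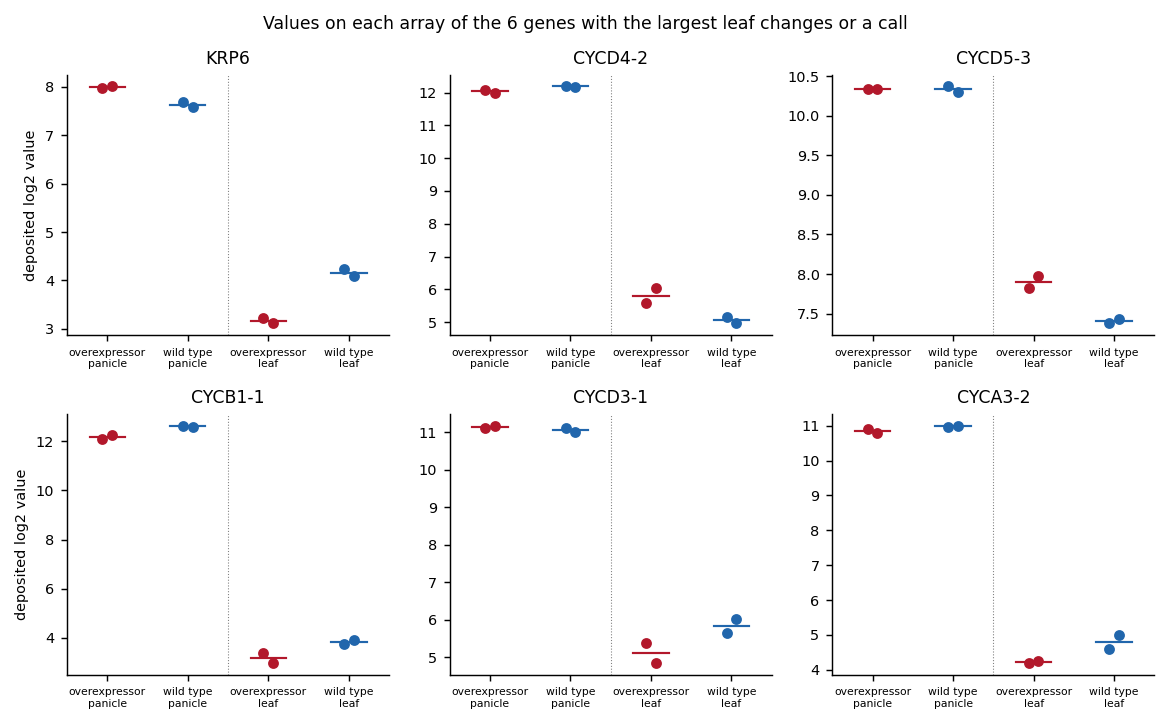
Deposited log2 values of KRP6, CYCD4-2, CYCD5-3, CYCB1-1, CYCD3-1 and CYCA3-2 on every array, overexpressor (red) left of wild type (blue) within panicles and leaves. Points are arrays and lines are means of 2. KRP6 lies below wild type in overexpressor leaves and above it in overexpressor panicles. The panicle and leaf values in a panel appear to have been normalized separately.

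No CDK passed in leaves, where the 11 differences ran from -0.21 to 0.29. CDKB2-1 had 4.63 and 4.82 in overexpressor leaves, against 4.62 and 5.17 in wild-type leaves, so the genotypes overlapped. KRP4 had 7.53 and 7.71 in overexpressor leaves, against 8.16 and 8.08 in wild-type leaves, a difference of -0.50 ± 0.13 (limma, adjusted p = 0.0809), and its second probe set had 0.28. KRP5 had -0.16 and KRP1 0.054. Among replication genes RPA14 had the largest leaf difference, with 9.42 and 9.43 in overexpressor leaves, against 9.27 and 8.88 in wild-type leaves, a difference of 0.35 ± 0.14 (limma, adjusted p = 0.243). The 8 MCM genes ran from -0.062 to 0.20, the 5 ORC genes from -0.23 to 0.10, and PCNA had -0.040. MCM2 to MCM7, ORC1, ORC3, ORC4 and ORC5 were below the array median in leaves of both genotypes, so these leaf values say little of a change in either direction.

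The third comparison tested whether the genotype effect differed between tissues, as the panicle difference minus the leaf difference. A constant added to the log2 values of one tissue cancels in it, but a stretch of the scale does not. The members ran from -0.90 to 1.36, and from -1.23 to 1.38 after quantile normalization over all 8 arrays. Of the 52 members 1 passed as higher, KRP6, and 0 as lower, where 2.1% and 1.74% of all tested probe sets did (3.84% either way), or 4.07% and 2.42% of genes, and 9 members had an unadjusted p under 0.05. For KRP6 the effect was 1.36 ± 0.17 larger in panicles than in leaves (limma, adjusted p = 0.00359), made up of 0.36 in panicles and -0.99 in leaves, and it passed in 15 of 15 alternatives. The second KRP6 probe set had 0.29 ± 0.17 and did not pass (limma, adjusted p = 0.423). It entered the alternatives only as an average with the brighter one. CYCD4-2 had a difference of effects of -0.90 ± 0.22 (limma, adjusted p = 0.0665), and CYCD5-3 one of -0.50 ± 0.16 (limma, adjusted p = 0.144). A higher level of these 2 cyclins in leaves alone was thus not shown by that test. CYCD3-1 had 0.79 ± 0.26 (limma, adjusted p = 0.153). The members' median was -0.17, against -0.011 over all probe sets and 0.030 over genes, and MCM2 to MCM7 had -0.34 to -0.19 with none passing.

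The fourth comparison set panicles against leaves in the wild type. The deposited tables of the tissues appear to have been normalized separately, so the values were quantile normalized again over all 8 arrays for this comparison, and sizes depend on that step. Of the 52 members 44 were higher in panicles (84.6%), 3 were lower and 5 did not pass, where 76.9% of all tested probe sets passed, 36% as higher and 41% as lower, or 50.2% and 35.1% of genes. For CDKE-1, CDKG-1 and KRP6, counted as higher, a second probe set with a panicle mean below the array median was lower in panicles. It had -1.64 for CDKE-1, -0.89 for CDKG-1 and -1.08 for KRP6. Further probe sets of the other members counted as higher were above 0. With the mean of a gene's probe sets 6 members were below 0, against 4 with the brightest probe set. The median over the members was 3.73 on the log2 scale, against -0.093 over all probe sets and 0.36 over genes. With array medians set equal the members' median was 4.42, with hybridization controls set equal 4.54, and with the deposited values 6.05, where the median over all probe sets was itself 1.58.

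Genes of the helicase and of mitosis were among the widest apart between the tissues. MCM5 had 11.52 in wild-type panicles and 2.94 in wild-type leaves after the renormalization, and MCM3 had 11.65 in panicles and 3.17 in leaves. MCM2 to MCM7 were 7.76 to 8.58 higher in panicles after that step, and 7.90 to 8.68 with equal medians. Their leaf values lay at percentiles 4.83 to 32.7, where a value may be background, so the sizes are uncertain. CYCB2-2 was higher by 8.82, CYCA2-1 by 7.84 and CYCB1-1 by 7.07, also from leaf values below the array median. All 4 B-type cyclins, all 3 A-type cyclins, all 5 ORC genes and all 8 genes of PCNA and RPA passed as higher in panicles, as did 8 of 9 D-type cyclins and 7 of 8 MCM genes. CDKB2-1 was higher by 6.19 ± 0.21 and KRP5 by 5.36 ± 0.16 (limma, adjusted p = 1.1e-08 and 5.3e-09), PCNA by 4.61 ± 0.12 and KRP6 by 1.57 ± 0.12. For KRP6 the direction depended on the probe set. Its second, dimmer probe set was lower in panicles, at -1.08 (limma, adjusted p = 2.6e-05), and the mean of both probe sets was 0.25.

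A few members did not follow the others. KRP1 was the exception in direction: it had 5.14 and 5.18 in wild-type panicles and 9.19 and 8.88 in wild-type leaves as deposited, and it was lower in panicles under all 4 scalings, with a difference of -5.84 ± 0.13 after the renormalization (limma, adjusted p = 1.1e-09), of -5.51 with equal medians, -5.38 with hybridization controls set equal and -3.88 in the deposited values. Its panicle value lay at percentile 35.5, where it may be background, so the size is uncertain. CDKF-3 and CDKF-1, of a kinase type that activates other CDKs, were lower in panicles by the renormalized values at -1.01 and -0.47. Their direction depended on the scaling, since they were 0.18 and 0.60 with equal medians and 1.81 and 2.23 as deposited. The 5 members that did not pass were CDKA-2 at 0.27, CDKC-1 at -0.059, KRP4 at 0.16, CYCD5-3 at 0.020 and MCM9 at 0.34, and all 5 were higher in panicles under the other 3 scalings. Since the samples are bulk tissue, fewer cells of a type and less RNA per cell cannot be told apart.

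**Figure D4:**
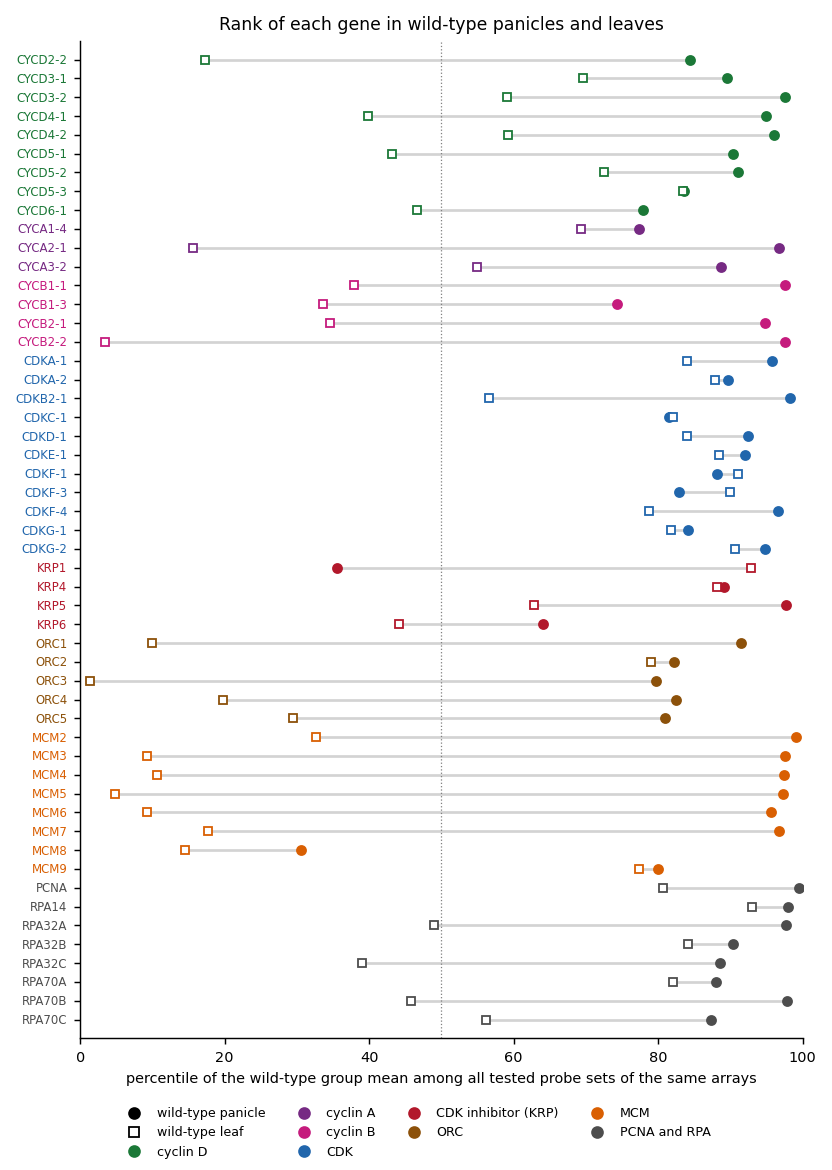
Percentile of each gene's wild-type mean among the 57194 tested probe sets of the same arrays, in panicles (filled circles) and leaves (open squares), coloured by class, with a dotted line at the array median. In panicles 50 of the 52 genes lie above the median and in leaves 28 do, and KRP1 is the gene with the widest gap in the other direction.

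Where a member had several probe sets they did not always move together. A second probe set of CYCD5-2 had 9.41 and 9.30 in overexpressor panicles, against 10.20 and 10.14 in wild-type panicles. It fell by 0.81 ± 0.11 (limma, adjusted p = 0.006), while the brighter probe set of the same gene had -0.15. A second probe set of CDKE-1 had 6.17 and 6.03 in overexpressor leaves, against 5.30 and 4.69 in wild-type leaves. It rose by 1.11 ± 0.21 (limma, adjusted p = 0.022), while the brighter one had 0.15. For CYCB2-2 the second probe set had -0.47 in panicles, of the same sign as the first. These were picked out after their values were seen. In all, 13 members had more than 1 probe set. The probe sets used for CDKA-1, CDKA-2, ORC4, MCM8 and MCM9 carry a suffix that marks probes shared with other transcripts. The gene called ORC5 here, LOC4334180, is also listed as OsORC1, and the gene called CYCB1-3, LOC4326914, also as CycB1;1, so those names are uncertain.

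Genes of the same processes outside the naming rule were counted in the same way. The 12 replication genes measured included polymerase delta subunits, the clamp loader RFC and the flap nuclease FEN-1. By limma 0 of them passed in panicles and 0 in leaves, where 2.89% and 4.42% of all tested probe sets did. At an unadjusted p under 0.05 there were 0 and 3. Between the wild-type tissues 11 were higher in panicles and TOP6A3 was lower, at -4.94 after the renormalization. Of all genes 50.2% passed as higher in panicles and 35.1% as lower. Of 6 histone genes 0 passed in either tissue for genotype, with 1 at an unadjusted p under 0.05 in each, and 6 were higher in panicles. RBR1, the retinoblastoma-related partner of D-type cyclins, had -0.25 ± 0.12 in panicles (limma, adjusted p = 0.397). Of 10 cyclins of other types 0 passed in either tissue by limma, with 1 and 3 at an unadjusted p under 0.05 in panicles and leaves. Between the wild-type tissues 6 of the 10 passed as higher in panicles and 1 as lower. The effect on CYCP4-1 was lower by 1.39 in panicles than in leaves (limma, adjusted p = 0.0394).

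EL2, a CDK inhibitor of the SIAMESE type known in rice from elicitor-treated cells, was the 1 gene of 6 further regulators to pass in leaves. It had 7.90 and 7.57 in overexpressor leaves, against 6.33 and 5.74 in wild-type leaves. It rose by 1.70 ± 0.21 (limma, adjusted p = 0.00255), while KRP6, an inhibitor of the other plant family, fell in the same leaves. In panicles EL2 had 10.09 and 10.45 in overexpressors, against 9.92 and 9.81 in wild type, which did not pass, and the difference of its effects was -1.29 (limma, adjusted p = 0.0499). SMR1, a second gene of the SIAMESE type, had 0.55 ± 0.16 in panicles (limma, adjusted p = 0.129) and -0.32 in leaves.

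Markers of organ identity moved with genotype in the same panicles. Of 13 floral organ genes 9 fell and 0 rose in overexpressor panicles, with list means of 9.43 on both overexpressor arrays and 10.89 and 10.95 on the wild-type arrays. Of 12 meristem genes 4 rose (SPL14, FZP, LOG and FON1) and 0 fell, with list means of 10.84 to 11.02 in overexpressors and 10.61 to 10.63 in wild type. Of 12 green tissue genes 4 fell in panicles, with list means of 6.68 to 7.04 in overexpressors and 7.50 to 7.55 in wild type. In panicles 1.65% of all genes passed as higher and 2.04% as lower. In leaves 4 green tissue genes (CHLH, CHLI, PORA and PORB) and 1 floral gene (MADS1) fell, where 6.34% of all genes passed as lower. The part of these marker differences in the members' differences was not tested. As a check of the tissue labels, all 13 floral and 10 of 12 meristem genes were higher in wild-type panicles and all 12 green tissue genes were higher in wild-type leaves. Of all genes 50.2% passed as higher in panicles and 35.1% as higher in leaves.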

How the data were processed

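Total RNA (6 ug per labelling, per the labels) was hybridized to rice Affymetrix arrays. The deposited log2 values were made by the authors with RMA, per the submitters' processing notes; no RMA version is stated there. RMA corrects background, quantile normalizes arrays and summarises probes, which compresses differences of dim probe sets. A description shared by all samples names another leaf stage, and groups were taken from the titles. Of 57381 probe sets, 123 AFFX and 64 reporter controls were left out. The platform annotation, updated through a RefSeq gene table, paired 22436 of the other 57194 with 1 gene, 95 with several and 34663 with none.

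4 group means were fitted over the 8 arrays (R 4.3.3, limma 3.58.1, 4 residual degrees of freedom, eBayes). Two-sided p-values of a contrast were adjusted over its 57194 probe sets by the Benjamini-Hochberg method. Each gene is shown by its brightest single-gene probe set. The scripts were tested on simulated data. Members and gene lists were chosen with earlier results of these data known. Named in full were members past the threshold, CYCD4-2, CYCD5-3 and KRP6, and per tissue the 5 largest differences among members whose genotypes did not overlap; others are given to complete a class. The alternatives were other normalizations, leaving out dim probe sets, fitting the 4 compared arrays alone, a trend with a robust prior, array weights, a replicate block, the mean of a gene's probe sets and leaving out each array. Same-numbered replicates are not stated to share plants. The number of arrays limits the precision. Summaries and plots used pandas 2.3.3 and matplotlib 3.10.9 in Python 3.11.15.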

Additional observations from a re-analysis of the deposited data

Results flagged for a closer look

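KRP6 was picked out because its genotype effect differed between the tissues by a test of the difference itself. The effect was 1.36 larger in panicles than in leaves (limma, adjusted p = 0.00359), with both overexpressor values above both wild-type values in panicles and below both in leaves. Its leaf values were below the array median, and its second, dimmer probe set had 0.24 in panicles and -0.052 in leaves. For that probe set the difference of effects was 0.29 and did not pass (limma, adjusted p = 0.423). With 2 arrays in each group, no array could be tested as an outlier.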

How the results depend on the processing

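No member passed as higher in panicles under any alternative, and 1 passed as lower with the mean of a gene's probe sets (CYCD5-2). In leaves the count of lower members was 3 after quantile normalization again, 2 with equal medians and with a trend and robust prior, 4 without dim probe sets and with the mean of probe sets, and 0 on the 4 leaf arrays alone, where 325 probe sets passed in place of 2529. The count of higher members in leaves was 1 with equal medians and 0 on the 4 arrays, with array weights and with the replicate block. For the difference of effects 3 members were lower with the mean of probe sets (CDKE-1, CYCD4-2 and CYCD5-2). For panicle minus leaf, 1 member was lower with deposited values, equal medians or hybridization controls set equal (chosen after seeing the data), and the median was 6.05, 4.42 and 4.54.

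Leaving out each array gave 0 to 1 higher and 1 to 3 lower members in leaves, 0 either way in panicles, 1 higher and 0 to 1 lower for the difference, and 42 to 45 higher and 2 to 4 lower for the tissues. The members' median ran from -0.17 to -0.073 in panicles, -0.022 to 0.082 in leaves, -0.22 to -0.088 for the difference and 3.62 to 4.15 for the tissues. CYCD5-3, near 0 between the tissues, was -0.0020 without wild-type leaf replicate 1 and -0.017 without wild-type panicle replicate 1. Over probe sets, the deviations of replicate 1 from its group mean correlated between the genotypes at 0.057 in panicles and 0.0072 in leaves. These correlations cannot decide whether same-numbered arrays shared plants or a day. With the replicate block 1097 probe sets passed in panicles, 1816 in leaves and 1467 for the difference, against 1652, 2529 and 2195. Among members 1 fell in leaves with that block. The cause of these changes was not tested.

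Of the values for named genes, 304 kept their direction and side of the threshold, 23 no longer passed, 15 passed in addition and 2 changed sign. All 23 losses were leaf values: KRP6 passed in 15 of 16 alternatives, CYCD4-2 in 6 of 16 and CYCD5-3 in 4 of 16. The 304 included panicle differences, which never passed, and large differences between the wild-type tissues, so they say little about the leaf calls. Of the counts and medians over the members, 30 were classed as moved and 162 as the same. With 2 arrays a group, the median 95% half-width for a member was 0.30 on the log2 scale within a tissue, and in leaves 24 members may be too dim for a fall to be seen.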
